A study of Mus musculus with 7 samples.

Results

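Relaxation of a cardiomyocyte requires calcium to leave the cytosol after each contraction. Most of it is pumped back into the sarcoplasmic reticulum (SR) by a calcium ATPase whose activity is held down by small membrane proteins, the remainder leaves the cell through the sodium-calcium exchanger and a plasma membrane ATPase, and a small part enters mitochondria through the uniporter. Calcium bound to calmodulin activates the kinase CaMKII, which phosphorylates several of these proteins, among them phospholamban. Transcripts of 10 genes of this system were taken by gene symbol from the counts per gene, out of 20927 entries for 20890 genes in the table. They are the SR and endoplasmic reticulum pumps *Atp2a1*, *Atp2a2* and *Atp2a3*, the pump regulators *Pln*, *Sln* and *S100a1*, the exchanger *Slc8a1*, the plasma membrane pump *Atp2b4*, the uniporter pore *Mcu* and the kinase gene *Camk2d*.

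RNA came from left ventricles of 3 wild-type (WT) mice, numbered 1, 3 and 4, and of 4 mice homozygous for the titin A178D missense variant (A178D), numbered 1 to 4. All were on the C57BL/6J strain, and there was 1 library per mouse. The labels give no treatment, age or sex for these mice. The variant had been introduced by genome editing into embryonic stem cells of another substrain, C57BL/6N, and the line was backcrossed to C57BL/6J. Counts per gene do not show which titin allele was transcribed. The WT libraries held 51797208, 54245530 and 41102868 counts, and the A178D libraries held 40623300, 52345529, 42174448 and 33080675, so that A178D replicate 4 was the shallowest. Levels are given as CPM, counts brought to a common library size by TMM, a normalisation that takes most genes as alike between libraries, and fold changes as A178D over WT with their standard error (SE).

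Transcripts of ventricular cardiomyocytes were abundant in every heart. The 8 marker genes of this list summed to between 93983 and 99644 CPM in WT and between 93392 and 103863 CPM in A178D hearts, with *Actc1* the most abundant per kb of exon and *Myl2* per kb of the longest transcript. Of the 8, *Mybpc3*, named here after its values were seen, was called higher (log2 fold change 0.30, SE 0.06, adjusted p = 0.0230 by edgeR), but not without WT replicate 3 or 4 or A178D replicate 1 or 3, with adjusted p from 0.0177 to 0.1197 when 1 heart was left out. It was the 1 call of the list, beside 1.04% of all tested entries called higher. The list did not lean to either side, with 4 genes above 0, 4 below 0 and a median log2 fold change of 0.003. Wholly higher in A178D hearts were 2 of the 8, *Actc1* and *Mybpc3*, and wholly lower 1, *Myh6*, beside 7.61% and 8.52% of all tested entries. *Myh6*, also named after its values were seen, had a log2 fold change of -0.11 (SE 0.06, adjusted p = 0.378 by edgeR), and -0.05 with offsets for transcript length and GC content, and no alternative called it. Of the atrial markers, *Bmp10* was at 0 in all 7 hearts and *Myl7* did not exceed 0.152 CPM, and of the skeletal muscle markers *Pvalb*, *Myh1* and *Myh4* stayed under 10 counts in every library. The hearts also held RNA of endothelium, fibroblasts, smooth muscle and macrophages, and in such bulk RNA fewer cells of a type and less RNA per cell cannot be told apart.

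Of the 10 genes, 9 reached 10 counts or more in 3 or more libraries and were tested, *Sln* being the exception. None of the 9 was called at an adjusted p under 0.05 by edgeR's quasi-likelihood test, against 2.35% of the 13894 entries tested, which stand for 13875 genes. Of these genes 19 were tested under more than 1 entry, none of them a listed gene, and every share of all tested genes below is a share of entries. DESeq2 and limma-voom likewise called 0 of them. Before adjustment 4 of the 9 had a p under 0.05, which was the case for 16.7% of all tested genes. These were the pump genes *Atp2a1*, *Atp2a2*, *Atp2a3* and *Atp2b4*. The median log2 fold change of the 9 genes was -0.017, beside 0.002 for all tested genes.

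*Atp2a2* encodes SERCA2, the pump that returns calcium to the SR in the heart. Its level was 18648, 19945 and 20632 CPM in WT replicates 1, 3 and 4, and 17379, 18364, 18008 and 16854 CPM in A178D replicates 1 to 4. Every A178D heart was below every WT heart, although WT replicate 1 and A178D replicate 2 lay close together. The WT mean was 19741 ± 1007 CPM (SD, n = 3) and the A178D mean 17651 ± 670 CPM (SD, n = 4), a difference of -10.6%. The log2 fold change was -0.16 (SE 0.06, 95% interval -0.29 to -0.03, adjusted p = 0.193 by edgeR), so that the lower level did not pass the test across all genes. With offsets for transcript length and GC content it was -0.11. The gene (ENSMUSG00000029467) lies on the minus strand of chromosome 5 from 122453513 to 122502225 (GRCm38).

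*Atp2a3* encodes SERCA3, a pump of lower calcium affinity found mainly in endothelial cells, blood cells and secretory epithelia. The WT hearts had 28.5, 25.8 and 27.8 CPM, and the A178D hearts 23.6, 21.2, 25.1 and 24.8 CPM. Here too the genotypes did not overlap, with A178D below WT, but WT replicate 3 and A178D replicate 3 were nearly equal. With a log2 fold change of -0.21 (SE 0.09, 95% interval -0.40 to -0.02), the adjusted p was 0.247 by edgeR. Markers of endothelium, 8 of 8 tested and none called, summed to 1235, 1149 and 1070 CPM in WT and 1154, 1136, 1189 and 1148 CPM in A178D hearts, with *Cdh5* the most abundant per kb of exon and *Egfl7* per kb of the longest transcript. Platelet and lymphocyte markers, again 8 of 8 tested and none called, summed to 17.01, 21.2 and 16.8 CPM in WT and 24.04, 16.8, 17.3 and 22.7 CPM in A178D hearts, with *Pf4* the most abundant. The 0 calls of both marker lists stand beside 2.35% of all tested entries. Neither sum separated the genotypes, and the part of these cells in the *Atp2a3* level was not tested.

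*Atp2a1* encodes SERCA1, the pump of fast skeletal muscle, and was the member with the smallest p. WT hearts had 0.856, 0.935 and 1.21 CPM, from 45, 51 and 49 counts. A178D replicates 1, 2 and 3 had 2.50, 1.78 and 1.87 CPM and replicate 4 had 1.02 CPM, from 101, 94, 80 and 33 counts. The first 3 of these exceeded every WT heart, whereas replicate 4 fell between WT replicates 3 and 4, so that the genotypes overlapped. The log2 fold change was 0.86 (SE 0.31, 95% interval 0.20 to 1.52, adjusted p = 0.176 by edgeR). This low count is uncertain for a second reason, because exons of *Atp2a1* share 763 bases with *Rabep2* on the opposite strand and the sources used here do not state whether counting used strand. *Rabep2* itself was highest in WT replicate 3 and A178D replicate 4, at 12.6 and 12.5 CPM, and had a log2 fold change of -0.11 (SE 0.11). Skeletal muscle markers summed to 3.04, 4.70 and 2.90 CPM in WT and to 3.00, 2.83, 3.77 and 3.95 CPM in A178D hearts. Of these 9 markers 4 were tested and none was called, beside 2.35% of all tested entries, and *Tnni2* was the most abundant. Their sum overlapped between the genotypes, and their part in the *Atp2a1* level was not tested. Among 8568 other entries whose mean count was 500 or more, the profile over the 7 hearts was nearest in *Npr3*, *Gramd1b* and *2310002L09Rik*, with root mean square differences of 0.26, 0.27 and 0.31 on the mean-centred log2 scale.

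Per length of exon, *Atp2a2* accounted for nearly all *Atp2a* transcript. Its share of the summed CPM per kb of the 3 genes was 99.816, 99.843 and 99.835% in WT and 99.819, 99.850, 99.821 and 99.820% in A178D hearts. In WT *Atp2a3* contributed 0.160 ± 0.014% (SD, n = 3), and in A178D hearts 0.155 ± 0.016% (SD, n = 4). *Atp2a1* contributed 0.0088 ± 0.0012% in WT and 0.0177 ± 0.0060% in A178D hearts. The composition of the family was thus dominated by the same gene in all 7 hearts, whichever genotype they had. No run of 76 bases, the length of 1 read, was found in transcripts of more than 1 of the 3 genes.

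**Figure D1:**
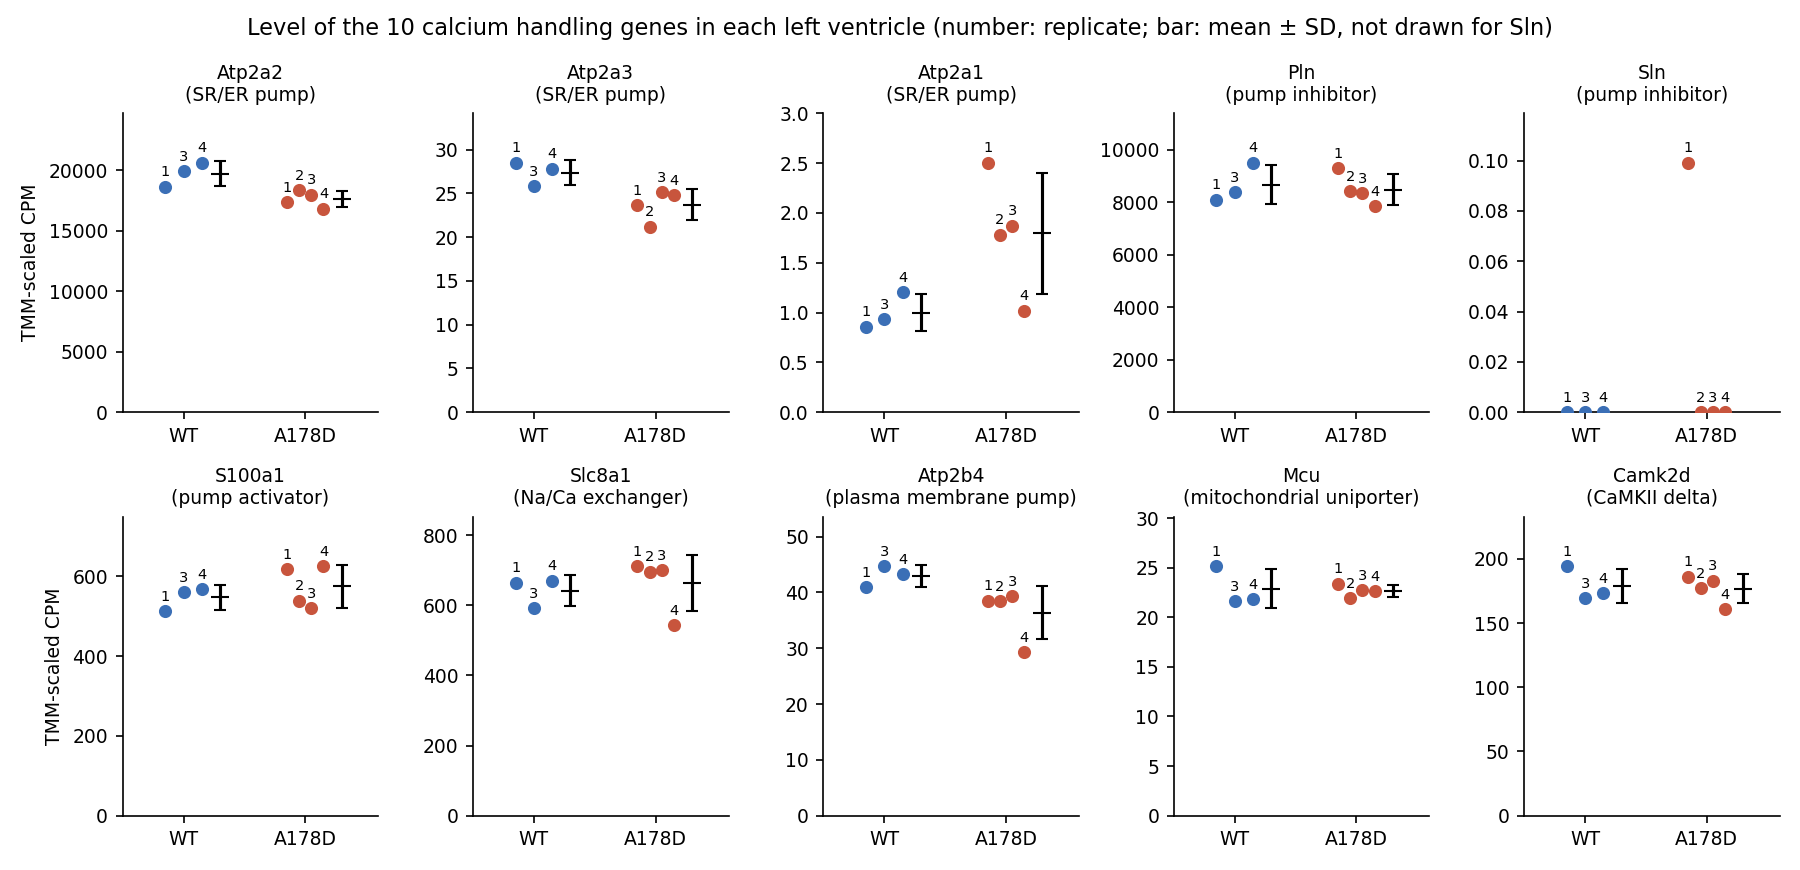
Level of each of the 10 genes in TMM-scaled CPM (vertical axes from 0) for 3 WT hearts in blue and 4 A178D hearts in red, with the replicate number above each point and the mean ± SD of the group as a black bar, left out for *Sln*. For *Atp2a2*, *Atp2a3* and *Atp2b4* every A178D point lies below every WT point, and the points of the other genes overlap.

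*Pln* encodes phospholamban, which inhibits SERCA2 until it is phosphorylated. The WT hearts had 8104, 8386 and 9501 CPM, and the A178D hearts 9300, 8429, 8344 and 7850 CPM. The genotypes overlapped, the highest level being in WT replicate 4 and the lowest in A178D replicate 4. The log2 fold change was -0.03 (SE 0.07, 95% interval -0.19 to 0.13, adjusted p = 0.880 by edgeR). *Cep85l*, which lies on the opposite strand and shares 141 exon bases with *Pln*, had 10.8, 11.3 and 12.5 CPM in WT and 7.98, 9.20, 7.68 and 6.45 CPM in A178D hearts, far below the *Pln* counts. *Cep85l* was called lower (log2 fold change -0.55, SE 0.13, adjusted p = 0.0383 by edgeR), but not without WT replicate 3 or 4 or A178D replicate 1 or 3, with adjusted p from 0.0308 to 0.161 when 1 heart was left out.

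The coding sequence of *Pln* is shown because it holds, side by side, the codons through which protein kinase A and CaMKII act on the pump. It spans 159 bases with its stop codon at chr10:53343864-53344022 on the plus strand (GRCm38, GENCODE M21), within 1 exon of the gene. Capitals mark codon 16, a serine phosphorylated by protein kinase A, and codon 17, a threonine phosphorylated by CaMKII, counted from the start codon.
Pln: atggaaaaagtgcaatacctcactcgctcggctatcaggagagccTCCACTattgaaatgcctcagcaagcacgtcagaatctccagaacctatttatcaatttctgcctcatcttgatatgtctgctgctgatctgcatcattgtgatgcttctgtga

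*Sln* encodes sarcolipin, a shorter inhibitor of the same pump that is typical of atria and skeletal muscle. It had 0 counts in all 3 WT hearts and in A178D replicates 2, 3 and 4, and 4 counts (0.099 CPM) in A178D replicate 1. A count of 0 allowed a level of up to 0.074 CPM in the shallowest WT library and up to 0.093 CPM in A178D replicate 4, taking 3 counts as the limit and covering counting error only. If each fragment was counted once per end, 3 fragments are 6 counts, and these limits become 0.148 and 0.185 CPM. The 4 counts of A178D replicate 1 lay between the limits of 3 and 6 counts, and no fold change was computed. The atrial markers *Myl7* and *Bmp10* were near or at 0 in the same hearts. The full atrial list summed to 329, 272 and 186 CPM in WT and to 595, 432, 394 and 663 CPM in A178D hearts, most of it from *Nppa*, which is also transcribed in stressed ventricles. Of the 6 atrial markers tested edgeR called *Nppa* alone, higher, with all 7 hearts, beside 1.04% of all tested entries called higher. *Nppa* was not called without WT replicate 3 or 4 or A178D replicate 1. Most of that list did not follow the sum. Of the 6 tested, *Nppa* included, 4 were below 0, and the median log2 fold change of the 6 was -0.193. Wholly lower in A178D hearts were 3 of the 6, *Nr2f2*, *Kcna5* and *Tbx5*, and wholly higher 2, *Nppa* and *Myl4*, beside 8.52% and 7.61% of all tested entries. All but *Nppa* of these were named after their values were seen. The coding sequence of *Sln*, the counterpart of the one above for an inhibitor that was hardly counted, spans 96 bases at chr9:53853473-53853568 on the plus strand.
Sln: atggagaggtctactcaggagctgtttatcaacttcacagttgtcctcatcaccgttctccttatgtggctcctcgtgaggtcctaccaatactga

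*S100a1* encodes a calcium-binding protein that binds SERCA2 and the ryanodine receptor and enhances their activity. Its level was 512, 561 and 568 CPM in WT and 618, 539, 520 and 625 CPM in A178D hearts. A178D replicates 1 and 4 were the highest of the 7, but replicates 2 and 3 lay among the WT hearts. With a log2 fold change of 0.07 (SE 0.08, 95% interval -0.10 to 0.24), the adjusted p was 0.696 by edgeR. This fold change was between 0.03 and 0.12 with 1 heart left out. With the length and GC content offsets its sign reversed, to -0.075.

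The regulators were also set against the pump within each heart, as a description without a test. For every 100 CPM of *Atp2a2* there were 43.5, 42.0 and 46.1 CPM of *Pln* in WT and 53.5, 45.9, 46.3 and 46.6 CPM in A178D hearts. A178D replicate 1 had the highest ratio, while A178D replicate 2 fell just under WT replicate 4. For *S100a1* the same ratio was 2.75, 2.81 and 2.76 in WT and 3.56, 2.93, 2.89 and 3.71 in A178D hearts, so that the genotypes did not overlap. Both ratios have the *Atp2a2* level as their denominator and carry its difference between the genotypes. They were not recomputed with the length and GC content offsets, under which *S100a1* and *Atp2a2* had log2 fold changes of -0.075 and -0.107.

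Among 13 regulators of the SR pump on the wider list, 12 were found in the table and 11 were tested, of which 1 was called higher and 0 lower, beside 1.04% and 1.31% of all tested genes. The called gene was *Hspb6*, which encodes the small heat shock protein HSP20, a partner of protein phosphatase 1 that limits dephosphorylation of phospholamban. It had 1165, 986 and 1058 CPM in WT and 1308, 1307, 1338 and 1344 CPM in A178D hearts, all 4 of the latter above all 3 of the former. *Hspb6* rose by a log2 fold change of 0.31 (SE 0.07, adjusted p = 0.0328 by edgeR). That call was kept in only 2 of 7 fits with 1 heart left out, with adjusted p between 0.010 and 0.192, and was lost without WT replicate 3 or 4 or A178D replicate 1, 2 or 3. In those 7 fits its log2 fold change was between 0.25 and 0.38. With offsets for transcript length and GC content the call was also lost, at a log2 fold change of 0.24 (adjusted p = 0.0697, in a range of 0.00156 to 0.192 over 16 alternatives). A block for the replicate number lost the *Hspb6* call as well, at a log2 fold change of 0.32 (adjusted p = 0.0755 by edgeR). Wholly lower in A178D hearts, as were 8.52% of all tested genes, were 2 genes of this list named after their values were seen, *Ppp1r3a* with a log2 fold change of -0.42 (SE 0.14, adjusted p = 0.134 by edgeR) and *Ppp1r2* with -0.10 (adjusted p = 0.461), neither of them called. Over the 16 alternatives the adjusted p of *Ppp1r3a* ranged from 0.0428 to 0.442, under 0.05 with DESeq2 alone, and its log2 fold change was between -0.52 and -0.24. *Pln* had the highest level per length of the list, and the median log2 fold change of its tested genes was 0.004.

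*Slc8a1* encodes the sodium-calcium exchanger NCX1, the main route of calcium out of the cardiomyocyte. Its level was 665, 592 and 670 CPM in WT and 711, 696, 700 and 543 CPM in A178D hearts. A178D replicates 1 to 3 were above all WT hearts and replicate 4 was below all of them, so that the group of 4 enclosed the group of 3. Accordingly the log2 fold change was 0.05 (SE 0.09, 95% interval -0.15 to 0.24, adjusted p = 0.854 by edgeR). This estimate depended on the treatment of transcript length and GC content, which were not varied apart. Offsets that removed the trend of each library with both gave 0.22 with an adjusted p of 0.0272, in a range of adjusted p from 0.0272 to 0.978 over the 16 alternatives. The exons of *Slc8a1* cover 18807 bases, and the counts of A178D replicate 4 decreased with length by a slope of -0.136 on the log2 scale for each doubling, beside slopes of -0.014 to 0.080 in the other 6 libraries.

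*Atp2b4* encodes PMCA4, a plasma membrane calcium ATPase of many cell types including smooth muscle. WT hearts had 40.9, 44.7 and 43.2 CPM, and A178D hearts 38.6, 38.5, 39.3 and 29.3 CPM. All A178D hearts were below the WT hearts, and replicate 4 was far below the other 3. The log2 fold change was -0.24 (SE 0.10, 95% interval -0.45 to -0.02, adjusted p = 0.251 by edgeR), and it was -0.15 without A178D replicate 4 and -0.12 with the length and GC content offsets. Together with *Atp2a2* and *Atp2a3*, *Atp2b4* was 1 of 3 members of the 9 tested whose genotypes did not overlap with A178D lower, a pattern seen in 8.52% of all tested genes. None of the 9 lay wholly higher in A178D, as did 7.61% of all tested genes.

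Most smooth muscle markers were called in the same direction as the difference in *Atp2b4*. Of 8 such markers 8 were tested and 6 were called lower, beside 1.31% of all tested genes, although only 3 without WT replicate 1 or A178D replicate 1 and 2 without WT replicate 3 or 4. *Smtn* and *Myocd*, named after their values were seen, did not pass with all 7 hearts. The list summed to 763, 760 and 717 CPM in WT and to 486, 573, 591 and 568 CPM in A178D hearts. *Acta2*, the most abundant of them per length, had 177, 213 and 183 CPM in WT and 108, 127, 134 and 137 CPM in A178D hearts, and no marker of the list was at 0. The lowest sum was in A178D replicate 1 and the lowest *Atp2b4* level in A178D replicate 4. The part of smooth muscle in the levels of *Atp2b4* and of the other pumps was not tested.

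Of 15 genes for extrusion across the plasma membrane 13 were tested, and 0 were called in either direction, beside 2.35% of all tested entries. *Bsg*, which encodes basigin, a partner of the plasma membrane pumps and of lactate transporters, was the most abundant per length. Its log2 fold change was 0.09 (SE 0.07, adjusted p = 0.577 by edgeR), and 0.03 without A178D replicate 4. The smallest p was that of *Atp2b3*, a pump gene best known from neurons, at 0.533, 0.367 and 0.861 CPM in WT and 2.33, 1.75, 0.961 and 1.17 CPM in A178D hearts. Its levels did not overlap, being higher in A178D, and its log2 fold change was 1.43 (SE 0.39, adjusted p = 0.0747 by edgeR). DESeq2 (adjusted p = 0.0110) and edgeR without a filter on low counts (adjusted p = 0.0444) called *Atp2b3*, and over the 16 alternatives its adjusted p ranged from 0.0110 to 0.271. Against this 1 gene wholly higher, 3 of the 13 were wholly lower in A178D hearts, beside 7.61% and 8.52% of all tested genes. They were *Atp2b4* and, named after their values were seen, *Nptn*, which encodes neuroplastin, at a log2 fold change of -0.23 (SE 0.07, adjusted p = 0.107 by edgeR) and *Atp2b1* at -0.19 (SE 0.08, adjusted p = 0.234). *Nptn* was called by DESeq2 alone (adjusted p = 0.0466, in a range of 0.0466 to 0.331), and *Atp2b1* by no alternative, with -0.099 under the length and GC content offsets. Per kb of exon *Atp2b1* made up 60.4 ± 1.4% of the 4 *Atp2b* genes in WT hearts (SD, n = 3), where *Atp2b4* made up 37.3 ± 1.5%. In A178D hearts (SD, n = 4) these shares were 59.4 ± 1.4% and 35.4 ± 1.4%. Per kb of the longest transcript *Atp2b4* made up less, 22.9 ± 1.1% in WT and 21.8 ± 1.0% in A178D hearts.

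*Mcu* encodes the pore of the mitochondrial calcium uniporter. It had 25.1, 21.6 and 21.8 CPM in WT and 23.4, 21.9, 22.7 and 22.6 CPM in A178D hearts. The A178D hearts lay within the range of the WT hearts, of which replicate 1 was the highest. *Mcu* had a log2 fold change of -0.01 (SE 0.09, 95% interval -0.20 to 0.17, adjusted p = 0.958 by edgeR). All 12 genes of the mitochondrial calcium list were tested and 0 were called, beside 2.35% of all tested entries, with a median log2 fold change of 0.006. The most abundant of them per length, the outer membrane channel gene *Vdac1*, had a log2 fold change of -0.05 (SE 0.06). For *Vdac1* it was -0.105 with the length and GC content offsets and -0.016 without WT replicate 4. The smallest p was that of *Smdt1*, which encodes the EMRE subunit that joins the pore to its gatekeepers, with 95.2, 98.6 and 92.0 CPM in WT and 100.5, 107.5, 102.9 and 127.4 CPM in A178D hearts. *Smdt1* was the 1 gene of the 12 wholly higher in A178D hearts, beside 7.61% of all tested entries, and 0 were wholly lower, beside 8.52%. Its log2 fold change was 0.20 (SE 0.08), with an adjusted p of 0.252 by edgeR. It was 0.12 without A178D replicate 4 and 0.05 with the length and GC content offsets.

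*Camk2d* encodes the delta isoform of CaMKII, the main isoform of the heart. The levels were 194, 169 and 173 CPM in WT and 186, 177, 183 and 161 CPM in A178D hearts. The highest value was in WT replicate 1 and the lowest in A178D replicate 4, and the other 3 A178D hearts lay above the other WT hearts, so that the genotypes overlapped through these extremes. Between the genotypes the log2 fold change was -0.02 (SE 0.08, 95% interval -0.18 to 0.15, adjusted p = 0.943 by edgeR).

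Another gene of the same kinase family did pass the test. *Camk2b*, which encodes the beta isoform and is best known from brain, had 25.5, 22.5 and 25.3 CPM in WT and 31.7, 33.9, 30.6 and 34.4 CPM in A178D hearts. All A178D hearts were above all WT hearts. *Camk2b* rose by a log2 fold change of 0.42 (SE 0.08, 95% interval 0.24 to 0.60, adjusted p = 0.0200 by edgeR). The call was kept in 3 of 7 fits with 1 heart left out, with adjusted p between 0.0211 and 0.136, and was lost without WT replicate 3 or 4 or A178D replicate 1 or 2. With a block for the replicate number the *Camk2b* call was also lost, at a log2 fold change of 0.40 (adjusted p = 0.0617 by edgeR). Among the 15 calmodulin and CaM kinase genes, all tested, 1 was called higher and 0 lower, beside 1.04% and 1.31% of all tested entries. Of the 15, 11 were below 0, with a median of -0.018. Wholly lower in A178D hearts were 2, beside 8.52% of all tested entries, both named after their values were seen and called by no alternative. They were *Camk2a*, at a log2 fold change of -0.09 (SE 0.07, adjusted p = 0.522 by edgeR), and *Camk2n1*, which encodes an inhibitor of CaMKII, at -0.18 (SE 0.09, adjusted p = 0.317). Without WT replicate 4 *Camk2a* was at -0.05. *Calm2*, 1 of 3 genes for the same calmodulin protein and the most abundant of the list per length, ranged from 117.5 to 121.7 CPM over the 7 hearts. Its log2 fold change was -0.01 (SE 0.06), and -0.092 with the length and GC content offsets.

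The share of each *Camk2* gene depended on the length used. Per kb of all annotated exons, *Camk2d* made up 22.8, 21.6 and 21.1% of the 4 genes in WT and 22.9, 21.7, 23.2 and 20.1% in A178D hearts, below *Camk2g* at 38.1 ± 1.0% (SD, n = 3) and 36.8 ± 1.1% (SD, n = 4). Per kb of the longest transcript, 5524 bases in place of 22493 bases of exon, *Camk2d* made up 40.4 ± 1.2% in WT and 40.3 ± 2.0% in A178D hearts and was the most abundant of the 4. The order of these genes is therefore not fixed by the counts alone. The *Camk2b* share was 7.39, 7.07 and 7.59% in WT and 9.63, 10.3, 9.55 and 10.6% in A178D hearts per kb of exon, without overlap, and was not tested as a share. *Camk2a* made up 32.7 ± 1.6% in WT and 31.2 ± 0.3% in A178D hearts by the same measure.

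No run of 76 bases was shared between transcripts of any pair of the 4 *Camk2* genes. How close they are is shown by the site of autophosphorylation, which keeps the kinase active after calcium has fallen. The 39 bases of coding exon around threonine codon 287, which is in capitals, are given for 3 of the genes. The 3 windows are from chr3:126797723-126797761 on the plus strand for *Camk2d*, chr11:5988979-5989017 on the minus strand for *Camk2b* and chr14:20760421-20760459 on the minus strand for *Camk2g* (GRCm38). *Camk2d* matched *Camk2b* at 33 of the 39 bases and *Camk2g* at 29.
Camk2d: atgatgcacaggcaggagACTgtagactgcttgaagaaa
Camk2b: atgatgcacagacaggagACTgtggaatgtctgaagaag
Camk2g: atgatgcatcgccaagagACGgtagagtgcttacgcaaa

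**Figure D2:**
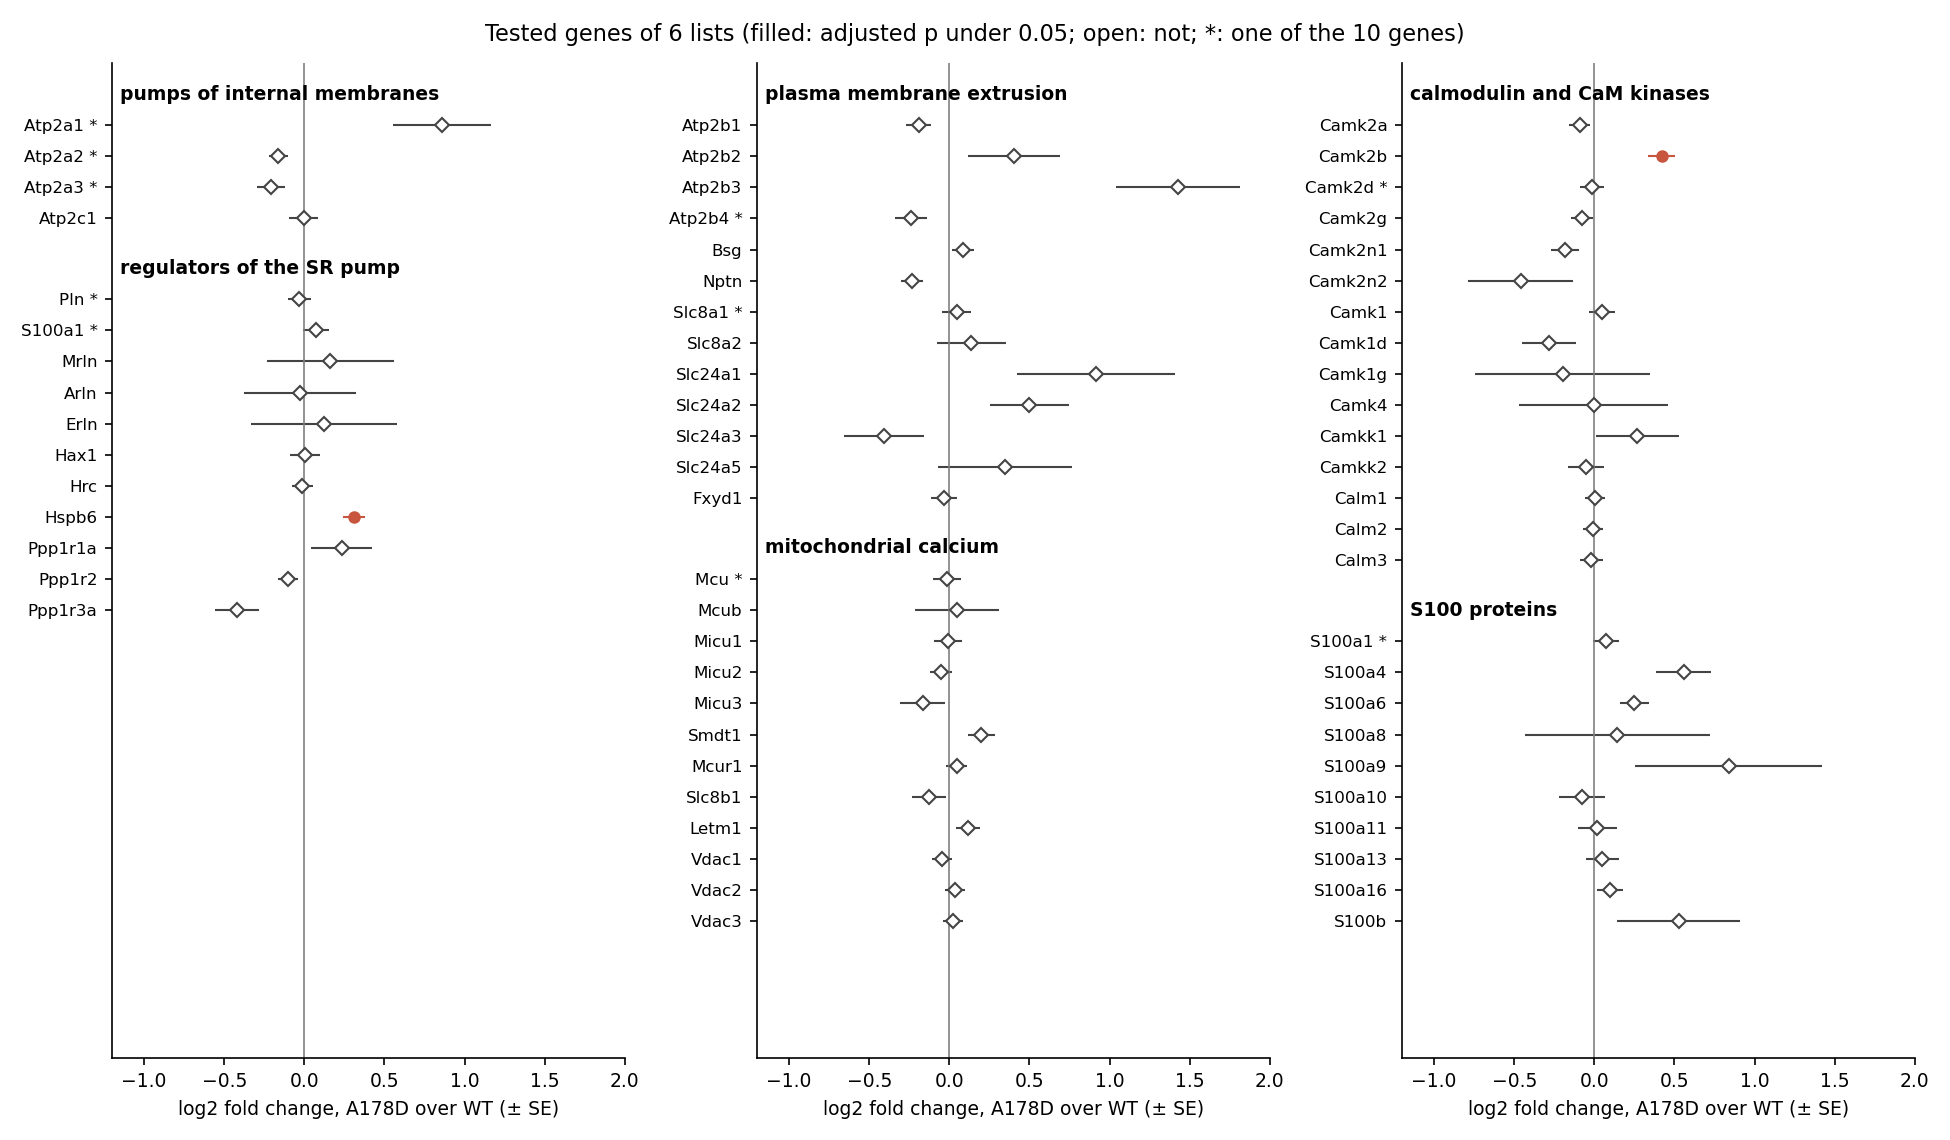
Log2 fold change, A178D over WT, with its SE (horizontal axis) for the tested genes of 6 lists, in 3 columns. Filled red circles mark adjusted p under 0.05, open diamonds the other genes and asterisks the 9 tested genes of the main 10, *Sln* not being drawn. *Hspb6* at 0.31 and *Camk2b* at 0.42 are the 2 filled points, and none of the asterisked genes is filled.

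Over the 6 lists together, 74 genes with *S100a1* counted once, 73 were found in the table and 64 were tested. Of these 2 were called higher and 0 lower, against 1.04% of all tested entries called higher. Wholly higher in A178D hearts were 5 and wholly lower 9 of the 64, beside 7.61% and 8.52% of all tested entries. The median log2 fold change of the 64 genes was 0.005. The 5 pumps of internal membranes gave 4 tested genes and 0 calls, beside 2.35% of all tested entries. Before adjustment 3 of the 4, the *Atp2a* genes described above, had a p under 0.05, beside 16.7% of all tested entries. Wholly lower in A178D hearts were 2 of the 4 and wholly higher 0, beside 8.52% and 7.61%. Of 15 S100 genes 10 were tested and 0 called, beside the same 2.35%. The smallest p of these was that of *S100a4*, a gene of fibroblasts and immune cells, with 3.82, 4.81 and 3.64 CPM in WT and 6.10, 4.74, 5.93 and 7.47 CPM in A178D hearts. Its levels overlapped, through WT replicate 3 and A178D replicate 2. The *S100a4* log2 fold change was 0.56 (SE 0.17, adjusted p = 0.116 by edgeR), and of 16 alternatives DESeq2 alone called it (adjusted p = 0.0474, in a range of 0.0474 to 0.311). Of the 10 tested S100 genes 9 were above 0, with a median of 0.121, and 1 was wholly higher in A178D hearts, beside 7.61% of all tested entries. That gene, *S100a6*, named after its values were seen, had a log2 fold change of 0.25 (SE 0.09, adjusted p = 0.176 by edgeR), and 0.11 with the length and GC content offsets, and no alternative called it. Fibroblast markers, 6 of 6 tested and 0 called, with *Dcn* the most abundant, summed to 882, 948 and 910 CPM in WT and 1062, 965, 931 and 948 CPM in A178D hearts. Macrophage markers, also 6 of 6 tested and 0 called, with *C1qa* the most abundant, summed to 152, 195 and 168 CPM in WT and 191, 208, 181 and 196 CPM in A178D hearts. The 0 calls of both marker lists stand beside 2.35% of all tested entries. Before adjustment 3 of the fibroblast and 2 of the macrophage markers had a p under 0.05, beside the 16.7% of all tested genes, and the median log2 fold change was 0.115 and 0.247. Wholly higher in A178D hearts were 3 fibroblast markers, *Col1a1*, *Col1a2* and *Lum*, and 1 macrophage marker, *Adgre1*, all named after their values were seen, beside 7.61% of all tested genes. The part of these cells in the *S100a4* level was not tested.

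Levels of the 10 genes spanned several orders of magnitude when compared per kb of exon over the 7 hearts. *Pln*, at 3102 ± 222 CPM per kb (SD, n = 7), and *Atp2a2*, at 3050 ± 221, were the highest. Within WT hearts *Atp2a2* was at 3246 ± 166 and *Pln* at 3140 ± 268 (SD, n = 3), and within A178D hearts *Atp2a2* was at 2903 ± 110 and *Pln* at 3074 ± 219 (SD, n = 4), so that their order turned between the genotypes while each difference stayed under the larger SD. By the longest transcript *Pln* was above *Atp2a2* in both genotypes, at 3712.0 ± 316.6 beside 3479.3 ± 177.5 in WT, a difference under the larger SD, and at 3633.5 ± 258.3 beside 3110.9 ± 118.0 in A178D hearts, a difference over either SD. *S100a1* followed at 812 ± 64, and *Slc8a1* at 34.8 ± 3.3. *Camk2d* was at 7.89 ± 0.49 and *Atp2a3* at 4.79 ± 0.47 CPM per kb. *Mcu* was at 3.28 ± 0.18 and *Atp2b4* at 3.20 ± 0.41, and their order turned as well. *Atp2b4* was at 3.51 ± 0.16 and *Mcu* at 3.30 ± 0.28 in WT, and *Atp2b4* at 2.97 ± 0.39 and *Mcu* at 3.27 ± 0.08 in A178D hearts, each difference being under the larger SD. *Atp2a1* was lowest of the tested genes at 0.418 ± 0.177 CPM per kb. By the longest transcript *Camk2d* moved to 32.1 ± 2.0 CPM per kb, next to *Slc8a1* at 35.4 ± 3.4, and *Mcu* to 7.92 ± 0.42, above *Atp2a3* at 5.49 ± 0.54.

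**Figure D3:**
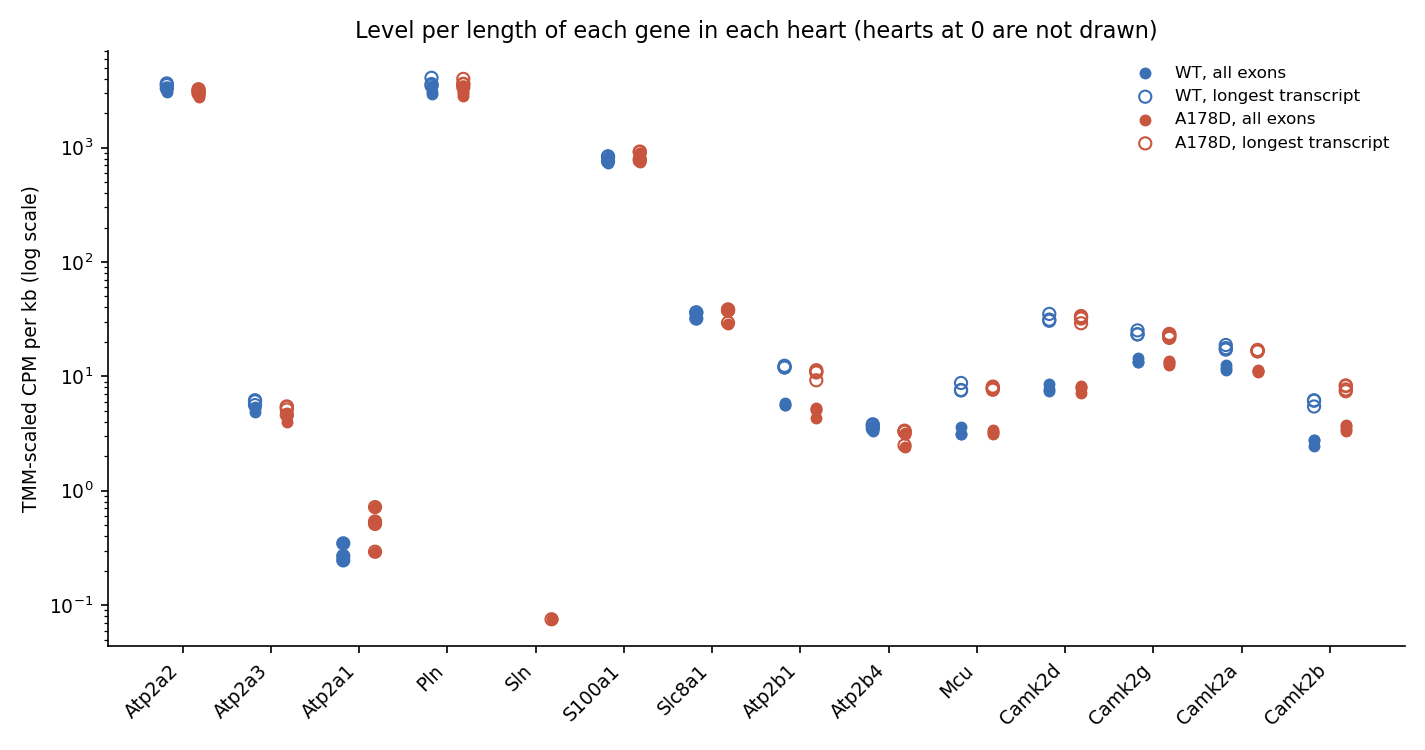
TMM-scaled CPM per kb on a log axis for the 10 genes and 4 relatives in each WT (blue) and A178D (red) heart, per kb of all exons (filled) or of the longest transcript (open), with hearts at 0 not drawn. *Pln* and *Atp2a2* lie together at the top, and the open and filled points of *Camk2d* are further apart than those of *Atp2a2*.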

How the data were processed

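Stranded poly(A) libraries were sequenced from both ends with reads of 76 bases. The submitters' processing notes name bcl2fastq 2.18.0.12, HISAT2 2.1.0, SAMtools 1.6, DESeq2 1.26.0 and GRCm38, and the counting program, its strand setting and the annotation are not given in the sources used here. The authors deposited the raw count per gene, without normalisation, for the 7 libraries. A second deposited table holds a signal, the count divided by 1 DESeq2 size factor per library, and served only to read those factors. Of 21257 entries, 223 with the counts of another entry and 107 low entries repeating an identifier and its counts were removed, which left 20927 entries for 20890 genes, and no listed gene was affected. Between 17.6 and 20.3% of counts from 1 to 20 were odd, so that most fragments appear to have been counted once per end. Names, positions and lengths came from GENCODE M21.

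Genotypes were compared, two-sided and without covariates, with edgeR 4.0.16 in R 4.3.3 (TMM, glmQLFit, glmQLFTest) in genes that reached 10 counts in 3 or more libraries, with Benjamini-Hochberg adjusted p under 0.05 as the threshold. The pipeline was tested on simulated data in which 200 genes were changed by 1 on the log2 scale, and edgeR recovered 93.5% of them. Smaller changes and trends with transcript length were not simulated. Alternatives were DESeq2 1.42.0, its size factors in edgeR, limma-voom (limma 3.58.1), no filter, a minimum of 10 counts in all 7 libraries, a block for the replicate number, adjusted p under 0.01, length and GC content offsets (mgcv 1.9.3, basis size 6), counts halved, the table as deposited, and leaving out each library. The 10 genes and all lists were chosen with earlier results of these data known. Named besides the 10 are, of each calcium gene list, called genes, the most abundant gene per kb of exon and that with the smallest p, of each marker list the most abundant gene and those under 10 counts, and the 3 profiles nearest to the member with the smallest p. *Rabep2* and *Cep85l* were added for their overlap. *Mybpc3* and other genes said to be so in the text were named after their values were seen.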

Additional observations from a re-analysis of the deposited data

Results flagged for a closer look

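The 4 A178D hearts were searched for a heart far from the other 3 in 28 of the genes named in the text. Chance gives such a heart in about 1 of 20 groups, and 4 were found. Other named genes were not searched, and this set, which held *Dcn*, is not that of the 28 genes refitted below. *Slc8a1* was lowest in A178D replicate 4 at 543 CPM, and *Atp2b4* was lowest in the same heart at 29.3 CPM. *Bsg* was highest there at 1574 CPM. *Dcn* was highest in A178D replicate 1 at 646 CPM. Groups of 3 WT hearts were not searched. A178D replicate 4 was the library with the fewest counts and the steepest slope of counts with length, and the part of these in the 3 values was not tested.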

How the results depend on the processing

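Of 448 refits under 16 alternatives, of 28 named genes that did not include *Dcn*, 407 kept the direction and the side of the threshold. Members called numbered 0 in all alternatives but the length and GC content offsets, which called 1, *Slc8a1*. Listed calcium genes called, 2 in the main analysis, numbered 6 with DESeq2 and 3 without a filter on low counts. They numbered 3 with the offsets, *Slc8a1* and *Camk2b* among them, 0 with adjusted p under 0.01 and 0 to 2 with 1 library left out. Over all genes DESeq2 called 686, the offsets 504 and adjusted p under 0.01 64, in place of 327, and leaving out 1 library gave 53 (without WT replicate 3) to 453 (without WT replicate 1). The labels do not state whether replicate numbers pair the mice. Same-numbered hearts correlated at 0.003, -0.040 and -0.042, and differently numbered hearts at -0.07 to 0.066. So few pairs do not decide the question. With the replicate block 0 listed genes and 271 of all genes were called. Values near 0 changed sign. With the offsets *Camk2d* was at 0.045, *S100a1* at -0.075 and *Bsg* at -0.004, and with the block *Mcu* was at 0.005 and *Calm2* at 0.000. With 1 library left out *Pln* ranged from -0.078 to 0.041, *Slc8a1* from -0.010 to 0.130, *Mcu* from -0.053 to 0.063, *Camk2d* from -0.055 to 0.049 and *Calm2* from -0.020 to 0.005. The cause was not tested. *Camk2b* was called in 11 of 16 alternatives and *Hspb6* in 9. The low counts of *Atp2a1*, *Atp2b3* and *Sln* limit their precision. The p-values set each difference against a variance estimated from 3 and 4 mice, with information shared across all tested genes.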
